A study of Bos taurus with 12 samples.

Results

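The cytosolic ribosome of cattle cells is built from rRNA and a set of ribosomal proteins, and the genes of these proteins were followed by symbol in RNA sequencing of precursor adipocytes. Gene names beginning RPL, RPS or RPLP with the numbering of the cytosolic ribosome, and RPSA, gave 85 of the 29240 genes counted. Of these, 51 belong to the large subunit, which joins amino acids, and 34 to the small subunit, which decodes the mRNA. A total of 83 had enough counts to be tested (49 large, 34 small). The others were RPL3L and RPL10L, paralogs known from striated muscle and testis, with at most 12 and 8 counts in any library. RPL15P and RPS27P carry member names but are pseudogenes in the reference gene table. RPL41 and RPL39L were not analysed here.

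The libraries fall into 4 groups of 3. OE cells received pcDNA3.1-HGFAC, a plasmid carrying the coding sequence of HGFAC, which encodes the activator of hepatocyte growth factor, and OE_NC cells received the negative control plasmid pcDNA3.1-NC. The si cells were transfected for interference and si_NC cells with its negative control (NC); the target of si is not named in the labels. All cells were collected 48 h after transfection, and neither the donors of the cells nor the share of cells transfected is given. HGFAC stood at 189.6, 156 and 138 CPM (counts scaled to library size by the TMM method) in OE and at 0.273, 0.379 and 0.526 in OE_NC, and at 0.843, 0.525 and 0.605 CPM in si, against 0.818, 0.738 and 0.935 in si_NC. The stromal genes COL1A2 and VIM averaged 7200 and 5940 CPM and PDGFRA 275 CPM over the 12 libraries, while CD34 and DLK1, also known from preadipocytes, were near 0 (0.0287 and 0.0689 CPM). Nothing in the labels says that replicates were separate cultures, so all p-values measure the spread between these libraries, which may be technical.

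Ribosomal protein mRNAs are among the most abundant of growing cells, and each ribosome takes a single copy of most of these proteins. Their mRNAs carry a 5′ terminal oligopyrimidine (TOP) tract, through which mTOR signalling and LARP1 control their translation, and their genes tend to be transcribed together. Unassembled proteins are degraded, and RPL5 and RPL11, bound to 5S rRNA, can hold the ubiquitin ligase MDM2. Several members (RPS19, RPS26, RPL5, RPL11, RPL15 and RPL35A) are mutated in human Diamond-Blackfan anaemia.

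Per length, the members were far above other genes. Their median level was 385 RPKM (reads per exon length and library total), against 2.94 RPKM for all tested genes, and 80 of 83 lay in the upper 10% of tested genes. The large subunit had a median of 447 RPKM and the small subunit 377 RPKM. Levels of single members spread widely around these medians. Among the highest were RPL23A, which lines the exit of the peptide tunnel (3932 RPKM), RPS24 (2464 RPKM), RPLP1 (2283 RPKM), RPS12 (1578 RPKM), RPL13A (1368 RPKM) and RPS3A (1298 RPKM). The lowest were the pseudogenes RPS27P (1.37 RPKM) and RPL15P (6.68 RPKM), then RPL22L1 (15.1 RPKM) and RPS4Y1 (54.4 RPKM). Members with fixed structural roles, other than RPLP1, fell between. The acidic stalk, which recruits elongation factors, had RPLP0 at 713 RPKM beside RPLP1 at 2283 and RPLP2 at 1212 RPKM. RPL3 and RPL10, near the peptidyl transferase centre, stood at 363 and 113 RPKM, and RPS3, at the entry of the mRNA channel, at 394 RPKM. RPSA had 959 RPKM, RPS6, the substrate of S6 kinases, 794 RPKM, and RPS27A, made as a fusion to ubiquitin, 849.7 RPKM. These unequal values per length describe the counts assigned to each gene, which reads shared with processed pseudogenes can move; the treatment of such reads is not given in the sources used here.

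**Figure D1:**
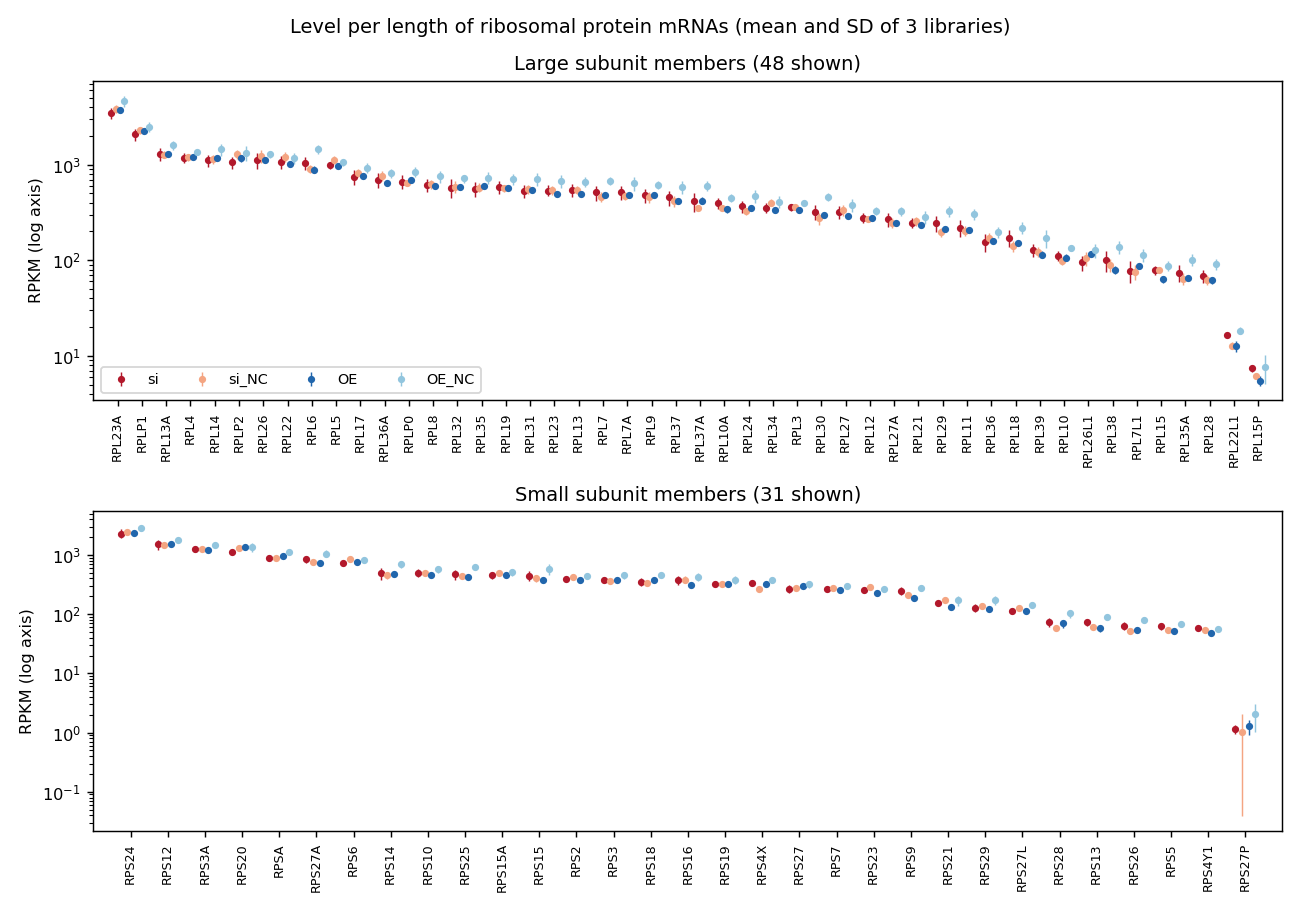
Level per length (RPKM, log axis) of 48 large subunit and 31 small subunit members, ordered by mean level; points are means and lines the SD of 3 libraries in si, si_NC, OE and OE_NC. RPL23A at 3932 RPKM and RPS27P at 1.37 RPKM mark the range of the means shown over 12 libraries, and OE_NC is the group with the highest mean in 77 of the 83 members tested.

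The genes are short. Exons of the members sum to between 295 and 2306 bases with a median of 714, against 2104 bases for all genes, and they lie on 29 chromosomes. Longer members gathered more counts (Spearman's rho of exon length with mean CPM 0.33 across 83 members, 0.19 across 16300 genes), and this was not so per length (rho with RPKM −0.02 for members, −0.18 for all genes). These relations are across genes of the same libraries and carry no test.

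Duplicated members were expressed below their partners. RPL22L1, the paralog of RPL22, stood at 1.58 ± 0.192% of RPL22 per length in si, against 1.06 ± 0.0959% in si_NC (SD, n = 3 each), and at 1.25 ± 0.149% in OE, against 1.57 ± 0.173% in OE_NC. The si libraries (1.44 to 1.80%) lay above the si_NC libraries (0.975 to 1.17%), and the OE libraries (1.09 to 1.37%) lay below the OE_NC libraries (1.42 to 1.76%). RPS27L reached 42.4% of RPS27 in si and 45.7% in si_NC, with overlap, and 37.8% in OE and 45.4% in OE_NC. Its OE libraries (36.3 to 38.8%) also lay below its OE_NC libraries (43.4 to 49.0%). RPL26L1 had 8.56, 8.50, 10.2 and 9.88% of RPL26 in si, si_NC, OE and OE_NC, and RPL7L1, a factor of large subunit assembly, 15.04, 16.4, 17.9 and 16.9% of RPL7. RPS4Y1, which lies on chromosome 23 in the coordinates counted here, had 17.4, 19.95, 14.9 and 15.1% of RPS4X. RPS4X lies on the X chromosome. For RPS4Y1 the si libraries (16.2 to 18.9%) lay below the si_NC libraries (19.4 to 20.6%), and OE overlapped OE_NC. The ratios of RPL26L1 and RPL7L1 overlapped in both comparisons.

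Before the comparisons, 3 libraries deviated most in these genes as a block. All 83 members lay above their own 12-library mean in OE_NC replicate 1, with a median log2 deviation of 0.41, and 3 and 4 did so in si replicate 3 (median −0.34) and si_NC replicate 2 (median −0.20). In the other libraries the median ranged from −0.16 in OE replicate 1 to 0.12 in OE_NC replicate 2. OE replicate 1 came near si_NC replicate 2, with 6 of 83 members above their own mean. Both subunits moved together in each library, by 0.43 and 0.37 (large and small) in OE_NC replicate 1 and by −0.36 and −0.29 in si replicate 3. The block followed a trend over all genes: across the 16300 tested genes, the correlation of a library's deviation with exon length was −0.42 in OE_NC replicate 1, 0.21 in si replicate 3 and 0.18 in si_NC replicate 2. This correlation was 0.15 in OE replicate 1, 0.14 in OE replicate 2 and −0.19 in OE_NC replicate 2. Negative values mean that deviations decreased with length. Counts and medians of the comparisons are given with and without the 3 libraries named first where they move.

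**Figure D2:**
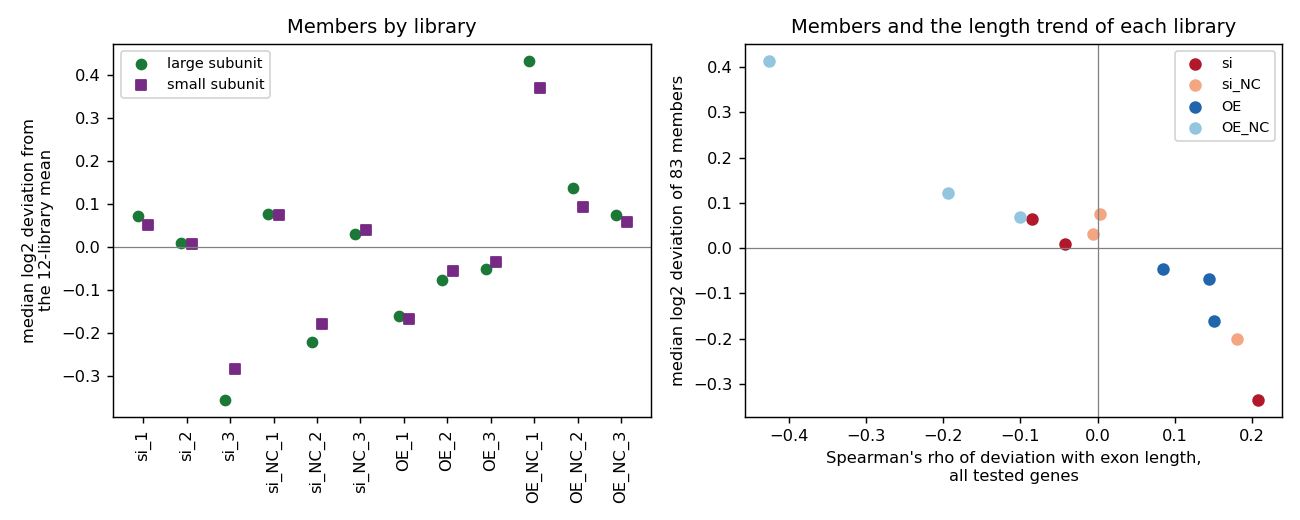
Left, the median log2 deviation of large and small subunit members from their 12-library means in each library; right, the median of all 83 members against the correlation (Spearman's rho) of the deviation of all 16300 tested genes with exon length, a point per library. OE_NC replicate 1 sits at a median of 0.41 and a rho of −0.42, and si replicate 3 at −0.34 and 0.21.

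As a share of all gene counts, the members took 3.47, 3.68 and 3.73% in OE and 5.06, 4.26 and 4.10% in OE_NC (means 3.63 ± 0.137 and 4.47 ± 0.518%, SD, n = 3 each). The OE libraries were all below the OE_NC libraries. In si the share was 4.004, 3.86 and 3.02%, and in si_NC 3.98, 3.31 and 3.84% (means 3.63 ± 0.532 and 3.71 ± 0.354%), with the groups overlapping. Large subunit counts exceeded small subunit counts 1.52 ± 0.0041 times in OE and 1.62 ± 0.0223 times in OE_NC (SD, n = 3 each); the OE libraries (1.519 to 1.526) were all below the lowest OE_NC library (1.595). The same ratio was 1.57 ± 0.0269 in si and 1.56 ± 0.00965 in si_NC, and these overlapped. Libraries held 28944733 to 42703663 gene counts, so counting error is small for all but the rarest members.

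In HGFAC overexpression, 16 of 83 members fell and 0 rose (edgeR adjusted p under 0.05; over all tested genes 2.25% fell and 2.22% rose). Among other genes of at least 5 CPM and of the members' lengths the share that fell was larger, 20.35% of 113 genes under 500 bases and 13.2% of 529 genes from 500 to under 1000 bases. Of the members, 3 of 16 fell in the first of these classes and 7 of 47 in the second, so the counts there were near those of other expressed genes. In the longer classes they were above them. From 1000 to under 2000 bases 5 of 16 members fell, against 4.678% of 1817 other genes of at least 5 CPM. From 2000 to under 4000 bases 1 of 4 fell, against 1.475% of 3187 such genes. The 16 called members were 10 of 49 large and 6 of 34 small subunit members. The median log2 change of the members was −0.29, against −0.005 over all tested genes, with −0.31 for the large and −0.24 for the small subunit. Of the 83, 81 had a negative change (50.7% of all tested genes), and in 67 every OE library lay below every OE_NC library, an arrangement seen in 16% of all tested genes. At an unadjusted p under 0.05, 50 members were lower and 0 higher (11.8% and 11.1% of all tested genes), and DESeq2 called 29 lower and 0 higher at its adjusted p (4.72% and 4.73%). In bulk RNA, fewer cells of a type and less of an mRNA per cell cannot be told apart. These counts rest on few libraries. There were 0 edgeR calls without OE_NC replicate 1 and 0 without OE replicate 2 (0.162% and 0.0538% of tested genes were lower). At an unadjusted p under 0.05, these fits had 33 and 39 members lower and 1 and 0 higher. Of all tested genes 15.7% and 16.1% passed that threshold in either direction. The members' median without OE_NC replicate 1 was −0.18. Without si replicate 3 and si_NC replicate 2, which are not of the groups compared but share the estimate of the spread, 52 were called lower (7.38% of tested genes).

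RPL6, of the large subunit (chromosome 17, 61814799 to 61842303, plus strand, in the coordinates of the count table, whose build is not given in the sources used here), had the smallest p. It stood at 1219, 1280 and 1421 CPM in OE and at 2331, 1981 and 1880 CPM in OE_NC. The groups did not overlap, and replicate 1 of OE_NC was the highest. RPL6 fell by 36.7% (log2 −0.66 ± 0.12 SE, edgeR adjusted p = 0.0132), and it remained called in 3 of the 6 fits that each left out an OE or OE_NC library. Of the other members called in OE and named below, RPS13 was lost in 4 of these 6 fits and the rest in 5 each. RPL29 stood at 188, 209 and 208 CPM in OE, against 346, 295 and 265 CPM in OE_NC (log2 −0.58 ± 0.13, edgeR adjusted p = 0.0286). RPL30, which in yeast represses splicing of its own pre-mRNA, stood at 133, 139 and 149 CPM in OE, against 229, 208 and 188 CPM in OE_NC (log2 −0.57 ± 0.13, edgeR adjusted p = 0.0319). RPL38, whose loss in mouse impairs translation of Hox mRNAs and patterning of the skeleton, had the largest drop. Its 29.8, 34.2 and 36.1 CPM in OE stood against 64.4, 55.5 and 46.4 CPM in OE_NC (log2 −0.73 ± 0.17, edgeR adjusted p = 0.0319). In all of these the 3 OE libraries were below the 3 OE_NC libraries.

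In the small subunit, RPS13 (chromosome 15, 35408334 to 35411055, plus strand) stood at 28.4, 28.5 and 34.4 CPM in OE, against 50.8, 43.9 and 40.3 CPM in OE_NC (log2 −0.56 ± 0.11, edgeR adjusted p = 0.019). RPS9, at the mRNA entry (chromosome 18, 63196977 to 63204297, minus strand), stood at 142, 149.6 and 162 CPM in OE, against 242, 203 and 203 CPM in OE_NC (log2 −0.52 ± 0.10, edgeR adjusted p = 0.0195). Both separated OE from OE_NC without overlap. RPS9 shares 437 of its 793 exon bases with a gene on the other strand, LOC107131323, so its value is uncertain because the strand used in counting is not given. RPS26, at the mRNA exit, stood at 68.2, 69.8 and 73.4 CPM in OE, against 111, 100.4 and 88.1 CPM in OE_NC (log2 −0.50 ± 0.12, edgeR adjusted p = 0.033). RPS28, its neighbour there, had 19.6, 26.9 and 24.2 CPM in OE, against 39.2, 32.2 and 28.4 CPM in OE_NC, and did not pass (log2 −0.50 ± 0.15, edgeR adjusted p = 0.0675). The ubiquitin fusion RPS27A stood at 451, 466 and 474 CPM in OE, against 732, 612 and 564 CPM in OE_NC (log2 −0.46 ± 0.11, edgeR adjusted p = 0.0361).

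The partners of 5S rRNA are RPL11 and RPL5. RPL11 stood at 341, 356 and 367 CPM in OE, against 578, 467 and 456 CPM in OE_NC, without overlap (log2 −0.50 ± 0.13, edgeR adjusted p = 0.0488). RPL5 had 995, 1050 and 1007 CPM in OE, against 1176, 1020 and 1007 CPM in OE_NC, which overlapped (log2 −0.07 ± 0.09, 95% interval −0.26 to 0.12, edgeR adjusted p = 0.686). Whether the changes of RPL11 and RPL5 differ was not tested. Of the 6 listed genes of this pathway, RPL11 alone passed; MDM2 and CDKN1A had log2 changes of 0.11 ± 0.13 and −0.19 ± 0.17. RPL15, RPL35A and RPL22L1 also fell. RPL15 stood at 160, 145 and 138 CPM in OE, against 225, 184 and 179 CPM in OE_NC (log2 −0.41 ± 0.10, edgeR adjusted p = 0.0367). RPL35A stood at 44.2, 46.4 and 44.4 CPM in OE, against 77.9, 62.8 and 60.7 CPM in OE_NC (log2 −0.58 ± 0.14, edgeR adjusted p = 0.0394), and RPL22L1 at 12.8, 15.9 and 16.4 CPM, against 21.8, 21.7 and 18.9 CPM (log2 −0.47 ± 0.11, edgeR adjusted p = 0.0323). RPL28 and RPS25, named here after their values were seen, had adjusted p of 0.0424 and 0.0495 in edgeR and log2 changes of −0.51 and −0.47.

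**Figure D3:**
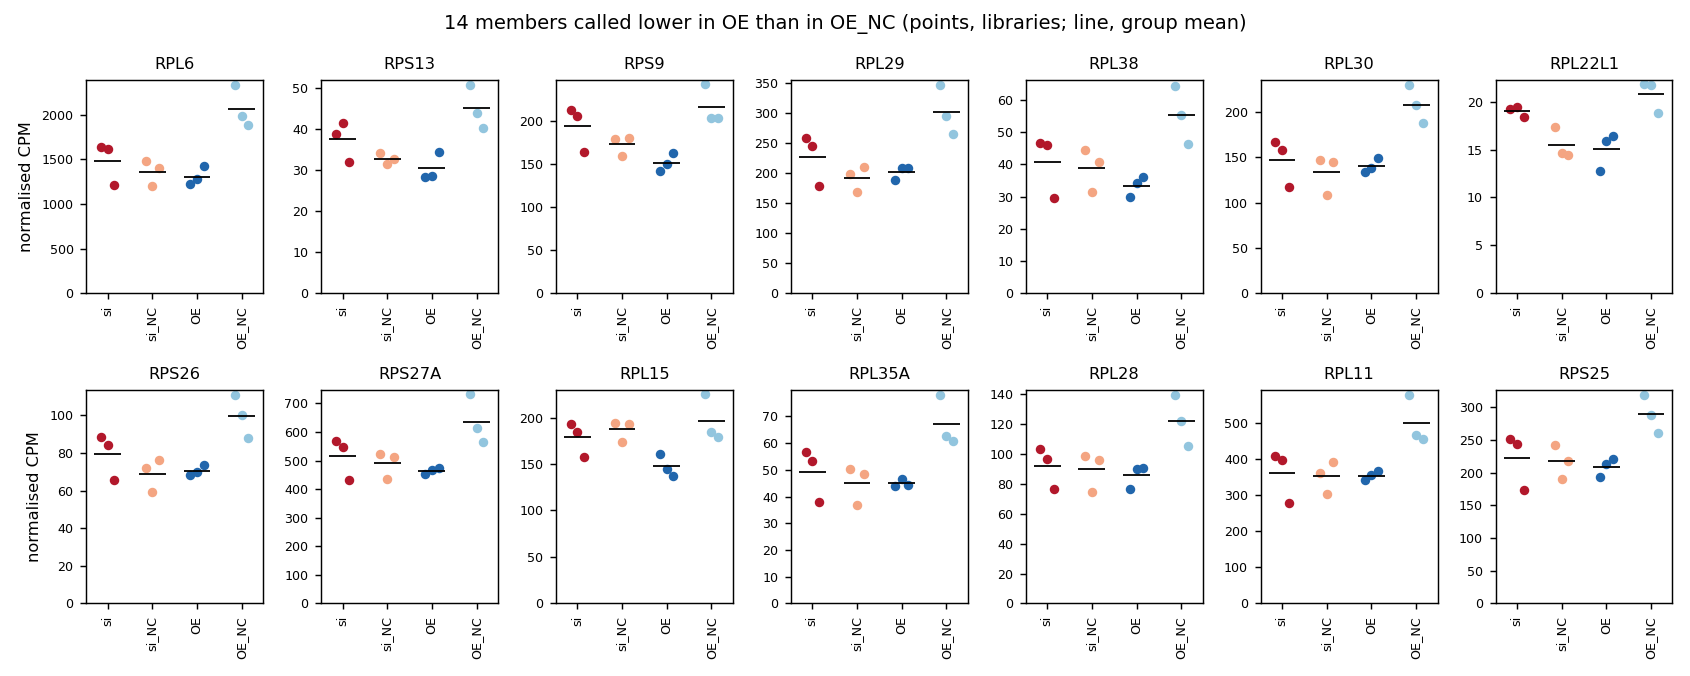
Normalised CPM of 14 of the 16 members that fell in OE relative to OE_NC, in si, si_NC, OE and OE_NC; points are libraries and lines group means, and each axis starts at 0. In every panel the 3 OE points lie below the 3 OE_NC points, and OE_NC has the highest mean of the 4 groups.

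Other members had changes nearer 0. RPS20 had 616, 662 and 662 CPM in OE, against 754, 548 and 581 CPM in OE_NC (log2 0.04 ± 0.11, 95% interval −0.18 to 0.27). The groups overlapped, with OE_NC replicate 1 above all OE libraries and the other OE_NC libraries below them. RPS6 and RPS27 had log2 changes of −0.03 ± 0.10 and −0.04 ± 0.11, RPLP1 −0.09 ± 0.11, RPLP2 −0.14 ± 0.13, RPS15A −0.09 ± 0.11 and RPL26L1 −0.10 ± 0.15. RPLP0, the base of the stalk, had −0.23 ± 0.11, RPSA −0.16 ± 0.09, RPS19 −0.19 ± 0.10, RPL3 −0.20 ± 0.08 and RPS3 −0.20 ± 0.10, and none of these passed. The 95% interval of RPL3 lay below 0, and the intervals of the others just named reached both sides of it. Across the 83 members the log2 change rose with the mean level (rho 0.52 with mean CPM, 0.18 across all tested genes). When the members were divided at the middle of their levels, a division chosen after the values were seen, the 41 of up to 286 CPM had a median change of −0.41 with 13 called, and the 42 from 294 CPM upward had a median of −0.24 with 3 called.

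The length trend of the libraries ran alongside these changes. Over all 16300 tested genes the OE minus OE_NC change increased with exon length (rho 0.35), and within the members less so (rho 0.15). Members of under 500 bases had a median change of −0.45 (16 genes), and the 535 other genes in that length class had −0.34. From 500 to under 1000 bases, where 47 members lie, members and the 1335 other genes both had a median of −0.27, and other genes there with at least 5 CPM had −0.20. From 1000 to under 2000 bases the medians were −0.22 for 16 members and −0.11 for 3404 other genes, and from 2000 to under 4000 bases −0.30 for 4 members and −0.003 for 5361 other genes. With the trend of each library on exon length removed as an offset, 3 members were called in OE: RPL6 (log2 −0.50 ± 0.09, edgeR adjusted p = 0.0145) and RPL15 (log2 −0.36 ± 0.09, edgeR adjusted p = 0.0475) were lower and RPS20 was higher (log2 0.37 ± 0.09, edgeR adjusted p = 0.0344). The members' median was then −0.02, against 0.02 over all tested genes, of which 0.896% were lower and 2.41% higher. What made the libraries differ by length was not tested.

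**Figure D4:**
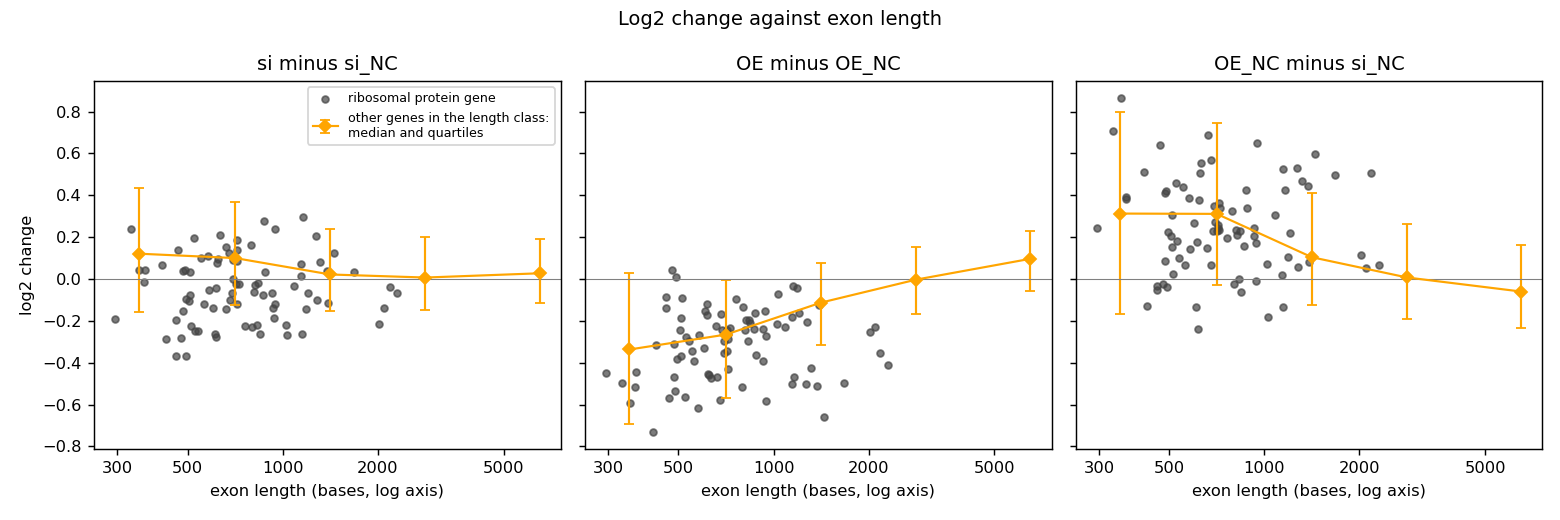
Log2 change against exon length (bases, log axis) for si minus si_NC, OE minus OE_NC and OE_NC minus si_NC. Grey points are the 83 members and orange diamonds with bars the median and quartiles of the other tested genes in 5 length classes. In OE minus OE_NC the other genes' medians run from −0.34 under 500 bases to 0.10 at 4000 bases and more.

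Other measures moved between the same groups. Counts from mitochondrially encoded genes were 1.51 to 1.58% of the total in OE and 1.96 to 2.07% in OE_NC. Among marker lists of other cell types, summed levels did not overlap for muscle (10.7 to 12.1 CPM in OE, 15.5 to 18.5 CPM in OE_NC, 4 genes), bone and cartilage (106 to 117 and 127 to 162 CPM, 3 genes) and mature adipocytes (10.7 to 11.8 and 8.27 to 9.81 CPM, 5 genes), and overlapped for immune cells, endothelium, epithelium and the stromal list. Within the muscle list MYOG, MYOD1 and MYH3 averaged 0.00586, 0.0427 and 1.73 CPM over 12 libraries, and ACTA1, at 11.9 CPM, fell in OE (log2 −0.68 ± 0.14, edgeR adjusted p = 0.0208). Within the adipocyte list ADIPOQ, LEP, CIDEC and PLIN1 averaged 0.0604, 0.109, 1.11 and 1.41 CPM and FABP4 7.10 CPM. The bone and cartilage sum was mostly SPP1 (116 CPM), beside RUNX2 (37.1 CPM) and SOX9 (4.45 CPM). The part of mitochondrial counts and of the muscle, adipocyte, bone and cartilage genes in the result was not tested.

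In si, 0 of 83 members passed (edgeR adjusted p under 0.05; over all tested genes 0.92% rose and 1.62% fell). DESeq2 (2.11% rose and 4.79% fell) and limma on log2(RPKM + 1) (1.5% and 0.515%) also called 0 members. At an unadjusted p under 0.05 edgeR had 13 members, 2 higher and 11 lower (9.03% and 9.88% of all tested genes). The median log2 change was −0.05, against 0.02 over all tested genes, and neither its sign nor its size was stable. It was 0.03 when libraries were scaled by their totals, where the all-gene median rose as well, to 0.10. The members' median was 0.05 without si replicate 3, against 0.02 over all tested genes. It was −0.13 without si replicate 1, −0.10 without si replicate 2 and −0.14 without si_NC replicate 2. Without si_NC replicate 1 it was −0.005. The members were spread around it, from −0.37 to 0.30, and the groups separated in 3 members upward and 5 downward (10.2% and 10.6% of all tested genes).

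Of the stalk, RPLP2 had 532, 491 and 403 CPM in si, against 681, 522 and 634 CPM in si_NC (log2 −0.37 ± 0.13, edgeR adjusted p = 0.146), while RPLP0 had a log2 change of −0.03 and RPLP1 of −0.22. Of the 5S partners, RPL11 had 0.03 and RPL5 had 1056, 1046 and 915 CPM, against 1342, 1065 and 1228 CPM (log2 −0.27 ± 0.09, edgeR adjusted p = 0.121). The groups separated in RPL5 and overlapped in RPLP2. RPS21 had 66.7, 64.7 and 59.6 CPM in si, against 84.0, 68.2 and 81.0 CPM in si_NC, also without overlap (log2 −0.29 ± 0.12, edgeR adjusted p = 0.216). Without si_NC replicate 2, whose members were low, 5 members passed, all lower (4.15% of tested genes): among them RPL5, RPLP2, RPS23 and RPS6, with log2 changes of −0.36 to −0.48.

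Upward, RPL22L1 had 19.3, 19.4 and 18.4 CPM in si, against 17.3, 14.7 and 14.4 CPM in si_NC (log2 0.30 ± 0.11, edgeR adjusted p = 0.158). RPS4X had 311, 297 and 269 CPM in si, against 252, 221 and 249 CPM in si_NC (log2 0.28 ± 0.09, edgeR adjusted p = 0.0955). In both, all si libraries lay above all si_NC libraries. RPS4X passed without si replicate 3 (log2 0.33, edgeR adjusted p = 0.0462), with scaling by library totals (log2 0.36, edgeR adjusted p = 0.0351) and when only genes of 5 CPM in 3 libraries were kept (edgeR adjusted p = 0.0489). RPL29 had 259, 245 and 178 CPM in si, against 199, 169 and 210.2 CPM in si_NC, which overlapped (log2 0.24 ± 0.13, edgeR adjusted p = 0.34). With the length trend removed, 18 members were lower and 0 higher in si (5.63% and 1.07% of all tested genes), among them RPLP2 (log2 −0.48, edgeR adjusted p = 0.00704) and RPL5 (log2 −0.36, edgeR adjusted p = 0.00815). Mitochondrial counts were 2.28 to 2.52% in si and 1.82 to 1.94% in si_NC. Summed bone and cartilage markers (156 to 169 CPM in si, 169.1 to 255 CPM in si_NC) and epithelium markers (2.06 to 3.03 and 1.18 to 1.97 CPM) did not overlap either, and the other marker lists did. The part of these measures in the si values was not tested.

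The responses were then set against each other as the OE change minus the si change in the same fit. The difference was negative for 13 members and positive for 0 (edgeR adjusted p under 0.05; 4.12% and 4.29% of all tested genes), 6 of the large and 7 of the small subunit. DESeq2 called 17 negative and 0 positive (5.48% and 6.51%), and 1 was positive at an unadjusted p under 0.05 in edgeR (12% of all tested genes). Its median over the members was −0.22, against −0.02 over all tested genes; scaling by library totals moved the all-gene median to −0.16 and the members' to −0.35. Without OE_NC replicate 1 the members' median was −0.11, with 8 negative and 1 positive call (3.19% and 3.51% of tested genes). Without si_NC replicate 2 it was −0.15 with 8 negative (3.52%), and without si replicate 3 it was −0.34 with 32 negative (6.85%). The paralog RPL22L1 had the smallest p, with a difference of −0.77 ± 0.16 (edgeR adjusted p = 0.00932) made of 0.30 in si and −0.47 in OE. RPS13 (−0.76 ± 0.16, edgeR adjusted p = 0.0108), RPL6 (−0.78 ± 0.17, edgeR adjusted p = 0.0116), RPS9 (−0.68 ± 0.15, edgeR adjusted p = 0.0124) and RPL29 (−0.82 ± 0.18, edgeR adjusted p = 0.0152) followed. These 5 passed in all 12 fits that each left out a library. The others included RPS26, RPL30, RPS4X, RPL18, RPS28, RPL35A and RPS27A, with differences of −0.44 to −0.73. All but RPS27A were among the members with positive values in si of at least 0.12, and RPS27A had 0.08. Members picked for a negative difference tend to have positive si values, and none passed in si by itself.

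At the positive end stood members with negative values in si, which members picked for a positive difference also tend to have. RPS20 had a difference of 0.32 ± 0.15, RPS6 of 0.23 ± 0.14, RPLP2 of 0.23 ± 0.19 and RPL5 of 0.20 ± 0.13, none past the threshold. With the length trend removed several were called: RPS20 had a difference of 0.75 ± 0.12 (edgeR adjusted p = 0.0018), RPLP1 of 0.57 ± 0.10 (edgeR adjusted p = 0.00252) and RPL5 of 0.52 ± 0.10 (edgeR adjusted p = 0.00406). In that fit 16 members had a positive and 3 a negative difference (8.37% and 2.74% of all tested genes), so the direction of the count turned while RPL29, RPL6 and RPS26 stayed negative (−0.47, −0.54 and −0.43).

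**Figure D5:**
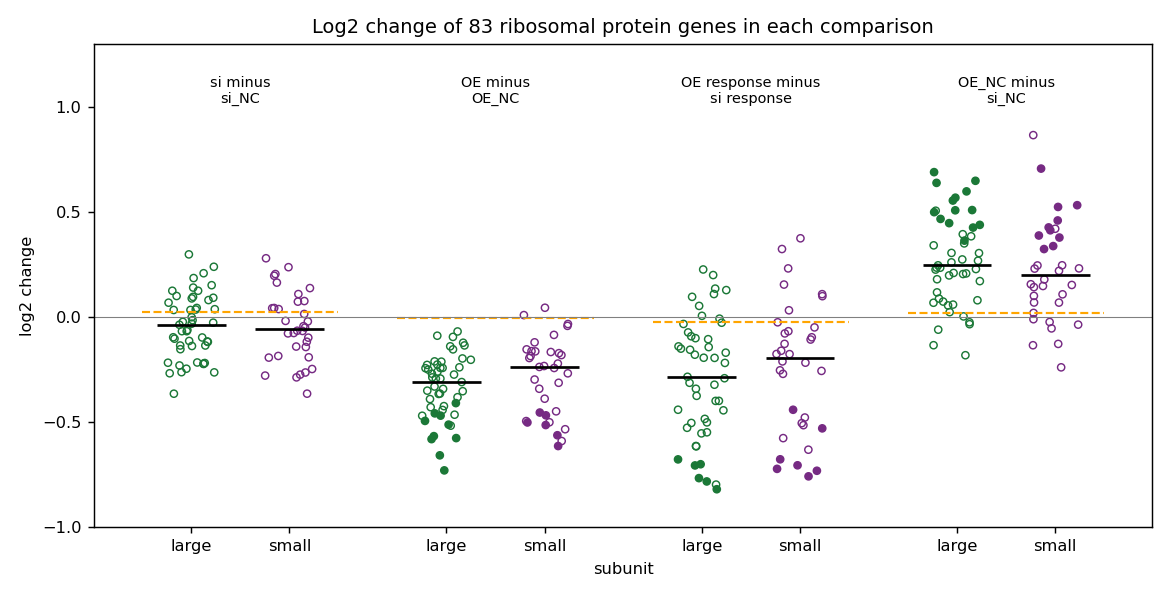
Log2 change of 83 members in the 4 comparisons, by subunit (green, large; purple, small). Filled points passed the threshold, black lines are the medians of each subunit and dashed orange lines the median of all tested genes. Over both subunits the medians are −0.05, −0.29, −0.22 and 0.23. With scaling by library totals the first is 0.03, against 0.10 over all tested genes. With the length trend removed the last is −0.07 and the third 0.16, against −0.06 and 0.06 over all tested genes.

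The controls themselves differed. Comparing OE_NC with si_NC, 24 of 83 members were higher and 0 lower (edgeR adjusted p under 0.05; 9.49% of all tested genes were higher and 10.2% lower), 14 of the large and 10 of the small subunit, with a median of 0.23 against 0.02 over all tested genes. DESeq2 called 28 higher and 0 lower (10.6% and 12.3%), and 1 was lower at an unadjusted p under 0.05 in edgeR (16.9% of all tested genes). Plasmid, reagent and handling cannot be told apart in this comparison, and it shares OE_NC with the overexpression comparison and si_NC with the interference comparison. RPL6 had 2331, 1981 and 1880 CPM in OE_NC, against 1485, 1199 and 1407 CPM in si_NC (log2 0.60 ± 0.12, edgeR adjusted p = 0.00332). RPL37A had 438, 388 and 344 CPM in OE_NC, against 255, 219 and 251 CPM in si_NC (log2 0.69 ± 0.14, edgeR adjusted p = 0.00342), and RPS4X had 365, 295 and 310.1 CPM, against 252, 221 and 249 CPM (log2 0.43 ± 0.09, edgeR adjusted p = 0.00395). The groups did not overlap in any of the 3. RPL29 (0.65), RPL30 (0.64), RPS28 (0.71), RPS26 (0.53), RPS13 (0.46), RPL18 (0.55), RPL35A (0.57) and RPL22L1 (0.43) were also higher on the log2 scale. RPS23 (−0.24 ± 0.10), RPL5 (−0.18 ± 0.09) and RPS6 (−0.14 ± 0.10) had negative values and did not pass. Without OE_NC replicate 1, 11 members were higher and 2 lower (7.09% and 8.72% of tested genes), with a median of 0.12, and without si_NC replicate 2, 12 were higher and 2 lower (7.55% and 9.31%), with a median of 0.15. With the length trend removed, 7 were higher and 17 lower (6.36% and 16.9% of all tested genes), and RPL6, RPL29, RPL30, RPL37A, RPL11, RPS26 and RPS28 were the 7. Summed markers were 15.5 to 18.5 CPM for muscle in OE_NC and 9.49 to 12.5 CPM in si_NC, 127 to 162 and 169 to 255 CPM for bone and cartilage, and 2.28 to 2.73 and 1.18 to 1.97 CPM for epithelium. Mitochondrial counts were 1.96 to 2.07% in OE_NC and 1.82 to 1.94% in si_NC. The part of these measures in the difference between the controls was not tested.

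Because the comparisons share their controls, the group levels of leading members are given side by side. RPL6 averaged 1307 ± 104 CPM in OE, 2064 ± 237 in OE_NC, 1487 ± 236 in si and 1364 ± 148 CPM in si_NC (SD, n = 3 each). RPL30 averaged 140.4 ± 8.01 CPM in OE, 208 ± 20.9 in OE_NC, 147 ± 26.5 in si and 134 ± 21.5 CPM in si_NC.

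Related genes were read in the same fit. Over all tested genes edgeR called 2.22% higher and 2.25% lower in OE, and 0.92% higher and 1.62% lower in si. Among ribosomal proteins outside the naming rule, FAU, RACK1 and RPL36AL had log2 changes of −0.30, −0.23 and −0.11 in OE and did not pass. Of 19 tested translation factors and other genes with TOP mRNAs, edgeR called 0 in OE and 0 in si, with medians of −0.14 and −0.05. At an unadjusted p under 0.05, 4 were lower in OE (11.8% of all tested genes), and 1 was higher and 4 lower in si (9.03% and 9.88%). DESeq2 called 2 lower in OE (4.72%) and 1 higher in si (2.11%). EEF1A1 and EEF2, the elongation factors, had −0.13 ± 0.07 and −0.13 ± 0.07 in OE. Of 13 dedicated escorts and assembly partners, edgeR called 0 in OE and 0 in si, with medians of −0.06 and −0.29. At an unadjusted p under 0.05, 1 was higher and 1 lower in OE (11.1% and 11.8% of all tested genes) and 7 were lower in si (9.88%). DESeq2 called 1 higher in OE (4.73%) and 4 lower in si (4.79%). For the difference edgeR called 2 of the 13 positive and 0 negative (4.29% and 4.12% of all tested genes). There MDN1, which releases assembly factors, and LTV1, a small subunit assembly factor, were positive (0.58 and 0.44). Of 20 regulators, TSC1, an inhibitor of mTOR signalling, rose in OE (log2 0.34 ± 0.08, edgeR adjusted p = 0.0283), and RPS6KB1, which encodes the S6 kinase, fell in si (log2 −0.30 ± 0.07, edgeR adjusted p = 0.0426). MTOR and LARP1 had log2 changes of 0.10 ± 0.07 and 0.06 ± 0.08 in OE and of −0.02 ± 0.07 and −0.04 ± 0.08 in si, and did not pass.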

How the data were processed

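Ribosomal protein genes were followed in 12 RNA-seq libraries of polyadenylated RNA (stranded, per the labels' protocols; 4 groups of 3, from the sample titles). Raw counts and RPKM were deposited by the authors; dividing each count by exon length and column sum gave the RPKM within a relative 6.6e-14. The tools named include fastp 0.23.0, Subread 1.5.1 and featureCounts, per the submitters' processing notes. For the aligner, build, counting strand and multi-mapping reads, nothing is given in the sources used here. Even values made up 66.2 to 69.3% of counts, so halved counts were also tried. Entries naming no gene (0.0868 to 0.116% of counts) were left out, and 0 columns with values per sample were unmapped.

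Counts (28944733 to 42703663 per library) were fitted with edgeR 4.0.16 in R 4.3.3: TMM, filterByExpr (minimum count 10, minimum total 15), 1 quasi-likelihood fit of 12 libraries with 8 residual degrees of freedom, F tests adjusted by Benjamini-Hochberg over 16300 genes, threshold 0.05. Levels are TMM-normalised CPM or the deposited RPKM. Standard errors are the log2 change over the root of F. Lists and correlations are described without tests. Alternatives were other scalings, DESeq2 1.42.0, limma 3.58.1 on log2(RPKM + 1) and log2(RPKM + 0.1), filters, halved counts, a spline of each library on exon length (4 degrees of freedom) as offset, the replicate block and leave-one-out fits. The procedure was tested on simulated data.

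Members, lists and alternatives were chosen with earlier results of these data known. Named members are the called ones (at most 12 per comparison by smallest p), the 8 highest and 4 lowest by RPKM, the 3 largest changes each way of at least 5 CPM, and those with a set role. All 85 symbols matched the ARS-UCD2.0 RefSeq gene table, 50 with the same start and end. Some genes are not reported here, though counts and medians include them. No sequence is printed.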

Additional observations from a re-analysis of the deposited data

Results flagged for a closer look

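The OE change minus the si change passed the threshold for 13 members, by the test of the difference itself (edgeR, adjusted over 16300 genes, 4.12% of which were lower); 12 are given here, each as a log2 value. RPL22L1 had −0.77 (−0.47 in OE, 0.30 in si), RPL29 −0.82 (−0.58 and 0.24), RPL6 −0.78 (−0.66 and 0.12), RPS13 −0.76 (−0.56 and 0.20) and RPS9 −0.68 (−0.52 and 0.16). RPS26 had −0.71 (−0.50 and 0.20), RPL30 −0.71 (−0.57 and 0.14) and RPL35A −0.70 (−0.58 and 0.12). RPS28 had −0.73 (−0.50 and 0.24), RPL18 −0.68 (−0.47 and 0.21), RPS27A −0.53 (−0.46 and 0.08) and RPS4X −0.44 (−0.16 and 0.28). In all 12 given here the OE value was negative and the si value positive, though none passed in si by itself. Members picked for a negative difference tend to have such signs. All 12 were also called higher in OE_NC than in si_NC, by log2 values from 0.32 (RPS9) to 0.71 (RPS28). Both controls are terms of the difference, and the part of the gap between them was not tested. RPL22L1, RPL29, RPL6, RPS13 and RPS9 passed in every one of 12 leave-one-out fits, RPS26 in all but 4, RPL30 and RPS4X in all but 7, and RPL18, RPL35A, RPS27A and RPS28 in all but 10. With the length trend of the libraries removed, RPL29, RPL6 and RPS26 remained called.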

How the results depend on the processing

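Which members pass depends on single libraries and on scaling. Every called member in OE was lower under each setting run except RPS20, higher with the length offset. That offset also turned the signs of the medians of the difference and the controls, in members and over all tested genes. Leaving out each library gave 0 to 35 called members in OE, 0 to 5 in si, 5 to 32 in the difference and 13 to 34 in the controls. In OE, edgeR called 0 without OE_NC replicate 1 and without OE replicate 2, 1 without OE replicate 1 (RPL6) and without OE_NC replicate 2, 2 without OE replicate 3 (RPL6 and RPS13), 10 without si_NC replicate 3, 28 without OE_NC replicate 3 or si_NC replicate 2 and 35 without si replicate 3. The difference of large and small subunit medians ranged over the same fits from −0.0966 to −0.0598 in OE, −0.121 to −0.0328 in the difference and 0.0303 to 0.085 in the controls.

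Scaling by library totals gave 28, 1, 27 and 41 called members (OE, si, difference, controls), no filter 48, 12, 31 and 38, and leaving out si replicate 3 with si_NC replicate 2 gave 52, 1 and 28 in the first 3. Over all tested genes, library totals gave 812, 404, 1534 and 3242 calls of 16300, and no filter 1679, 1208, 1930 and 3647 of 29240. Leaving out the 2 libraries gave 2325, 1119 and 2305 of 16712. DESeq2's Wald test gave 29 members in OE (1541 of 16300 genes), a fit of only the groups compared 38 in OE (1621 of 15738 genes), and the filter of 5 CPM 1 in si (502 of 9845 genes). The difference has no fit of only 2 groups. The length offset gave 3, 18, 19 and 24 called members (539, 1093, 1812 and 3794 of 16300 genes), with 16 of 19 positive in the difference and 17 of 24 negative in the controls, where edgeR with TMM had 0 of each. Its member medians were −0.0159, 0.156 and −0.0663 in OE, the difference and the controls, against 0.0219, 0.0597 and −0.0597 over all tested genes. With this offset the subunit difference of the controls was 0.0700, and the correlation with length −0.148, 0.15, −0.18 and 0.113. Per length, members took 10.9, 12.2, 10.3 and 10.8% of summed RPKM in OE, OE_NC, si and si_NC. The causes of these shifts were not tested. Of the alternatives for single named members, 305 of OE kept their side of the threshold, 1 passed and 69 were lost.

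Replicate numbers do not pair the libraries (correlations of same-numbered deviations 0.045, −0.01 and −0.015 for OE with OE_NC, 0.092, −0.257 and −0.191 for si with si_NC). The replicate block gave 17, 0, 11 and 26 called members (803, 396, 1247 and 3150 of 16300 genes). Depth limits RPS27P, with 2 to 40 counts a library.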

Other observations

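Members just outside the threshold in OE are given here as values. The 5 nearest to it, RPL10A, RPL39, RPS15, RPL13 and RPL7, had log2 changes of −0.35, −0.52, −0.54, −0.39 and −0.43 with edgeR adjusted p of 0.053, 0.0563, 0.0566, 0.0582 and 0.0583, and in each every OE library lay below every OE_NC library. They are named after their values were seen.

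The pseudogene RPL15P, for which the assignment of reads shared with RPL15 is not given in the sources used here, stood at 4.43, 4.04 and 3.51 CPM in OE, against 7.36, 5.11 and 3.71 CPM in OE_NC, and at 5.55, 5.34 and 4.73 CPM in si, against 4.71, 4.36 and 4.67 CPM in si_NC. The si libraries were all above the si_NC libraries, and OE overlapped OE_NC. RPL35 shares 590 of 929 exon bases with WDR38 on the other strand, RPSA 254 of 1206 with LOC101903734 and RPLP0 150 of 1084 with LOC101902407, so their levels are uncertain. RPL36A carries exons on 2 sequences in the count table.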
